A study of Mus musculus with 12 samples.

Results

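The 10 genes described here encode the machinery that recycles and phosphorylates translation initiation factor eIF2. They are the eIF2B subunits Eif2b1 to Eif2b5, the eIF2alpha kinases Eif2ak1 to Eif2ak4 and the phosphatase subunit Ppp1r15b. They were chosen by gene symbol from this known pathway and by no cut on their values, but with earlier results of these data known. They are 10 of the 55421 gene identifiers in the count table. RNA was sequenced in bulk from mouse small intestine in 3 groups of 4 libraries each. The question, as far as the labels state it, is how loss of Eif3h, a subunit of initiation factor eIF3, bears on intestine that has lost the tumour suppressor Apc.

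The first group is labelled Wild Type (WT) and day 7. The second, Apc, carries VilCreER and Apc fl/fl and is labelled day 4. The third, Apc Eif3h, carries VilCreER, Apc fl/fl and Eif3h fl/fl and is also labelled day 4. VilCreER is a tamoxifen-activated Cre recombinase driven by the villin promoter, which is active in the gut epithelium, so other cells of the tissue keep their floxed alleles. Tamoxifen was given by intraperitoneal injection of 80 mg/kg, 2 times 24 hours apart. The treatment text gives harvest after 7 days, while the Apc and Apc Eif3h samples are labelled day 4. Genotype and day therefore cannot be told apart in any comparison with WT. Comparisons of Apc Eif3h with Apc are within 1 day. WT replicate 4 and Apc replicate 1 are labelled female and the other 10 libraries male. Strain, age and whether WT mice carried Cre are not stated. Whether the 4 libraries of a group came from 4 animals is not stated. Each p-value therefore reflects only how far these libraries spread, and that spread could be technical.

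As background, eIF2 carries the initiator tRNA to the ribosome in its GTP-bound form, and eIF2B is the exchange factor that reloads eIF2 with GTP after each round. Stress kinases phosphorylate the alpha subunit of eIF2, and phosphorylated eIF2 holds eIF2B inactive, which lowers general translation while raising translation of a few mRNAs such as Atf4. Phosphatase complexes built on Ppp1r15a or Ppp1r15b remove the phosphate again. These data are mRNA levels. They hold no measurement of protein, phosphorylation or exchange activity.

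The start-site windows of 4 members are printed because these members span the responses described below. Eif2b1 was among the subunits that differed most from WT and Eif2b2 was the subunit that differed least. Eif2ak2 is the kinase known to be interferon-inducible, and Eif2ak3 was lower in Apc Eif3h than in WT. Each window runs from 250 bases before the annotated start to 30 bases after it, 5′ to 3′ on the gene's strand, from RefSeq on GRCm38.p6. Of the 10 members, 8 had such a window. Capitals mark matches to the searched motifs.

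Eif2b1, chr5:124579102-124579381, minus strand: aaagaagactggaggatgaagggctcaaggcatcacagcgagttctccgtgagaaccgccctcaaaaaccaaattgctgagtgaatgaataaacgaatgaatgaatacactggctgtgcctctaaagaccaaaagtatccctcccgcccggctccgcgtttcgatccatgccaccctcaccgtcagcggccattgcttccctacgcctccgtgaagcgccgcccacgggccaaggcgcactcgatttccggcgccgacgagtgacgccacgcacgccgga
Eif2b2, chr12:85219231-85219510, plus strand: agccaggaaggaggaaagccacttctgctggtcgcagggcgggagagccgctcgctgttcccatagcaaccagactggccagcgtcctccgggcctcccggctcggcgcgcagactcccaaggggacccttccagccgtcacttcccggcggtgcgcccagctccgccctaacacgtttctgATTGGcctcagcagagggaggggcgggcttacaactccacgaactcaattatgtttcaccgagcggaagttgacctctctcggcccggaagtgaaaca
Eif2ak2, chr17:78882543-78882822, minus strand: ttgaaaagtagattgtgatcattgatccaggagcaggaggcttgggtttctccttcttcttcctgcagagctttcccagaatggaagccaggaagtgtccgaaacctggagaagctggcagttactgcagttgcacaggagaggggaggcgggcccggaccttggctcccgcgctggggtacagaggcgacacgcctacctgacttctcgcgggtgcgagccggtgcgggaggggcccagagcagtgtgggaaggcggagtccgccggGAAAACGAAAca
Eif2ak3, chr6:70844265-70844544, plus strand: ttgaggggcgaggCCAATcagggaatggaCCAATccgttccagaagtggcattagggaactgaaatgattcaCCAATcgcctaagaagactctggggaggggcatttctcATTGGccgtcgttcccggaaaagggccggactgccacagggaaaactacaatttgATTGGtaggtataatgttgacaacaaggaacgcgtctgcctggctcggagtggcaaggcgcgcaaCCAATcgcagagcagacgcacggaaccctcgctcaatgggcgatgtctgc

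Both strands of each window were searched for 5 motifs, and each match is a match of letters only. The motifs were the E-box CACGTG, held by 6.79% of 32851 windows of the same length, the ATF4 element TGATGNAA (3.81%), the interferon response element, searched as its core (3.28%), the TCF/LEF core CTTTGA (15.2%) and CCAAT (36.1%). None of these motifs overlapped another at the matches found. Eif2b2 holds 1 CCAAT match on the opposite strand, which begins at position -68, where +1 is the annotated start. Eif2b4 holds 1 at -64, Eif2b5 1 at -164 and Eif2ak1 1 at -88. The Eif2ak2 window holds 1 interferon response element at +19. Eif2ak3 holds 6 CCAAT matches, at -237, -221, -178, -140, -85 and -20. Having 6 or more was a property of 22 of the 32851 windows (0.067%), a count looked up after the matches were seen. The Eif2b1 window and both Eif2ak4 windows held none of the 5 motifs, and no member's window held an E-box, an ATF4 element or a TCF/LEF core.

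Library totals ranged from 10483112 to 21298301 counts, and all 10 members passed the filter on low counts. Levels below are CPM (library-scaled counts after TMM scaling), which compare 1 gene across libraries. Eif3h checked the labels: it was at 126 to 142 CPM in WT libraries, 158 to 175 CPM in Apc libraries, and 28.3, 43.1, 54.6 and 25.9 CPM in Apc Eif3h replicates 1 to 4. Its log2 difference between Apc Eif3h and Apc was -2.13 (SE 0.192, adjusted p 0.000405), and replicate 3 kept the most of it. Whole-gene counts of Apc (WT 87.4 to 98.3 CPM, Apc 106 to 123 CPM, Apc Eif3h 92.8 to 121 CPM) need not show the loss of floxed exons. The log2 difference of the Apc gene between the Apc group and WT was 0.28 (SE 0.0866, adjusted p 0.0177), without overlap. The adjusted p was 0.0526 without WT replicate 1 and 0.0577 without Apc replicate 4. Between Apc Eif3h and WT the log2 difference was 0.16 (adjusted p 0.142). Apc Eif3h replicate 2 stood apart from all other libraries on the second principal component, which held 11.1% of the variance. Without it the members called against WT numbered 5 higher and 2 lower, as with it, and its effect on the comparison with Apc is given there. Markers of the labelled tissue were abundant: 15 enterocyte markers summed to 49260 to 66750 CPM in WT libraries, 22720 to 34840 CPM in Apc libraries and 25120 to 42420 CPM in those of Apc Eif3h.

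Apc against WT asked how the members differed after loss of Apc. All 5 eIF2B subunit mRNAs rose in Apc, by 1.23-fold for Eif2b2 and 2.85-fold for Eif2b3, with the other 3 between. The kinases did not move as a group: Eif2ak4 (GCN2) rose, Eif2ak1 (HRI) fell, and Eif2ak2 (PKR) and Eif2ak3 (PERK) were not called. Ppp1r15b fell slightly. In all, 6 members rose and 2 fell at an adjusted p below 0.05 (called, below). That background was high: 51.8% of the 17394 genes tested were called in this comparison, 27.7% higher and 24.1% lower. The median log2 difference was 0.42 over the 10 members and 0.68 over the eIF2B subunits, against -0.0099 over all genes tested.

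**Figure D1:**
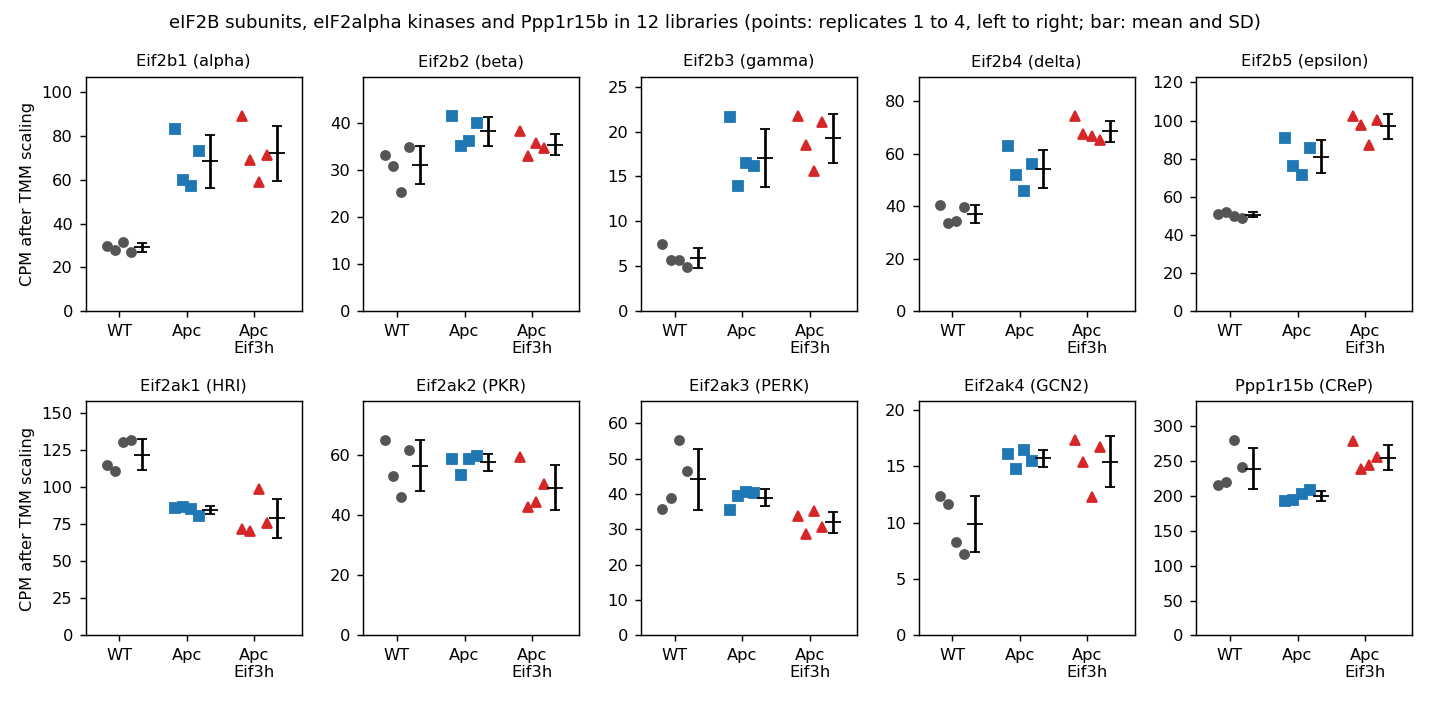
Level of each of the 10 members in every library, in CPM after TMM scaling (y axes start at 0 and differ between panels). Points are replicates 1 to 4 from left to right in the WT, Apc and Apc Eif3h groups, and bars are the mean and SD (n = 4). The WT points of Eif2b1, Eif2b3, Eif2b4 and Eif2b5 lie below all points of both other groups, and those of Eif2ak1 lie above them.

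The regulatory subunits of eIF2B are alpha, beta and delta, which sense phosphorylated eIF2. Eif2b1 encodes alpha (ENSMUSG00000029388, chr5:124570213-124579131, minus strand). Its level was 29.8, 28.1, 31.6 and 26.9 CPM in WT and 83.4, 59.9, 57.4 and 73.0 CPM in Apc. Every Apc library lay above every WT library, and Apc replicates 1 and 4 were the highest of their group. The log2 difference was 1.23 (SE 0.141, adjusted p 3.64e-05), or 2.35-fold.

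Eif2b2 encodes beta (ENSMUSG00000004788, chr12:85219481-85226628, plus strand). It was at 33.2, 30.8, 25.4 and 34.8 CPM in WT and at 41.4, 35.1, 36.2 and 40.0 CPM in Apc. The groups did not overlap, but the highest WT library lay just under the lowest Apc library. The log2 difference of 0.30 (SE 0.102, adjusted p 0.0267) lost its call in 6 of 21 alternative settings. Those were the fits with no filter on low counts (adjusted p 0.0549) and with males only (0.0514), and those that left out replicate 2 (0.0540) or 3 (0.0708) of WT or replicate 1 (0.0767) or 4 (0.0695) of Apc.

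Eif2b4 encodes delta (ENSMUSG00000029145, chr5:31187558-31193430, minus strand). Its level was 40.3, 33.6, 34.4 and 39.5 CPM in WT and 62.9, 51.9, 45.9 and 56.2 CPM in Apc. All 4 Apc libraries were above all 4 WT libraries, with a log2 difference of 0.55 (SE 0.101, adjusted p 0.000786). Eif2b4 shares 204 exon bases with Snx17 on the opposite strand, and no strand setting of the counting is given. Snx17, named after its values were seen, had a log2 difference of -0.18 (adjusted p 0.111).

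The catalytic subunits are gamma and epsilon. Eif2b3 encodes gamma (ENSMUSG00000028683, chr4:117019402-117087306, plus strand). Of the eIF2B subunits it had the lowest level and the largest log2 difference, 1.51 (SE 0.173, adjusted p 3.71e-05). It was at 7.52, 5.70, 5.74 and 4.86 CPM in WT, where 59 to 97 counts lie behind each value, and at 21.6, 14.0, 16.5 and 16.2 CPM in Apc. The lowest Apc library was above the highest WT library.

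Eif2b5 encodes epsilon, which holds the exchange domain (ENSMUSG00000003235, chr16:20498817-20509323, plus strand). WT libraries were tightly grouped at 51.0, 51.9, 50.1 and 48.9 CPM, and Apc libraries were at 90.7, 76.4, 71.4 and 85.6 CPM. The groups were well apart, with a log2 difference of 0.68 (SE 0.0843, adjusted p 5.67e-05). The calls of Eif2b1, Eif2b3, Eif2b4 and Eif2b5 held in all 21 alternative settings.

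The kinases differ in the stress they sense. Eif2ak1 encodes HRI, known as the kinase of heme shortage in red cell precursors and of mitochondrial stress (ENSMUSG00000029613, chr5:143817788-143904251, plus strand). It was at 115, 111, 131 and 132 CPM in WT and at 85.9, 86.9, 85.3 and 80.9 CPM in Apc. All Apc libraries lay below all WT libraries. The log2 difference was -0.53 (SE 0.105, adjusted p 0.00133), or 1.44-fold lower, and the call held in all 21 alternative settings. Eif2ak1 shares 487 exon bases with Aimp2 on the opposite strand, which rose by 0.44 (adjusted p 0.000707) and was named after its values were seen. Markers of red cells were low: 9 genes summed to 13.7 to 18.1 CPM in WT libraries and 13.5 to 40.7 CPM in Apc libraries. The 40.7 CPM was that of Apc replicate 4. In Apc Eif3h they summed to 7.95 to 23.8 CPM, and Slc4a1 was at 0 in all WT libraries. Of 7 tested, 1 was called, Epb42, higher in both comparisons with WT. Its mean was 0.60 CPM in WT, 2.93 CPM in Apc and 1.58 CPM in Apc Eif3h. Of all genes tested, 27.7% rose in Apc against WT and 29.8% in Apc Eif3h against WT.

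Eif2ak2 encodes PKR, the kinase of double-stranded RNA (ENSMUSG00000024079, chr17:78852564-78882573, minus strand). WT libraries spread from 46.0 to 64.9 CPM (64.9, 53.1, 46.0 and 61.7) and Apc libraries from 53.3 to 59.6 (58.7, 53.3, 58.5 and 59.6). The groups overlapped, and the log2 difference was 0.03 (SE 0.122, adjusted p 0.859). Of 26 interferon-stimulated genes, 9 fell and none rose, where 24.1% of all genes tested fell and 27.7% rose. The list median was -0.57, against -0.0099 over all genes tested. Those of the list that fell included the transcription factor Irf1 (-0.90, adjusted p 0.000249) and the RNA sensors Ddx58 (-0.73, adjusted p 0.000409) and Ifih1 (-0.57, adjusted p 0.00181). The summed level of the 26 genes was 2889, 1389, 1560 and 2239 CPM in WT and 1293 to 1476 in Apc. In WT, replicates 1 and 4 were the highest both for this sum and for Eif2ak2.

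Eif2ak3 encodes PERK, the kinase of the endoplasmic reticulum (ENSMUSG00000031668, chr6:70844515-70905245, plus strand). It was at 35.8, 39.0, 55.2 and 46.6 CPM in WT and at 35.4, 39.6, 40.5 and 40.3 CPM in Apc. The groups overlapped, with WT replicate 3 the highest library, and the log2 difference was -0.18 (SE 0.124, adjusted p 0.242).

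Eif2ak4 encodes GCN2, the kinase of amino acid shortage (ENSMUSG00000005102, chr2:118388618-118475234, plus strand). It was the least abundant kinase, at 12.4, 11.7, 8.32 and 7.25 CPM in WT and 16.1, 14.7, 16.5 and 15.5 CPM in Apc. Apc libraries all lay above WT libraries, whose replicates 3 and 4 were low. The log2 difference was 0.66 (SE 0.168, adjusted p 0.00567), and the call held in all 21 alternative settings.

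Ppp1r15b encodes CReP, the constitutive targeting subunit of the eIF2alpha phosphatase (ENSMUSG00000046062, chr1:133131143-133139783, plus strand). It was at 216, 220.2, 279.6 and 241 CPM in WT and 193, 195, 203 and 208 CPM in Apc. The groups did not overlap, with WT replicate 3 the highest library. The log2 difference was -0.26 (SE 0.0908, adjusted p 0.0286), and 9 of 21 alternative settings lost the call. Scaling by library totals only moved it to -0.02 (adjusted p 0.826). Fits without WT replicate 3 or 4 or Apc replicate 1, 2 or 3 gave an adjusted p of 0.0866, 0.0565, 0.0719, 0.0629 and 0.0508.

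For 8 of the 10 members the WT and Apc libraries did not overlap, and 48.8% of all genes tested did so. Scaling by library totals only moved the median of all genes to 0.22 in this comparison and to 0.17 for Apc Eif3h against WT. It turned the split of calls from 4820 higher and 4192 lower to 6817 and 2393, and for Apc Eif3h against WT from 5177 and 4882 to 6605 and 3175. No called member changed direction against WT under this scaling, Eif2ak1 was called lower under it too, and Ppp1r15b was then called higher in Apc Eif3h against WT (0.30, adjusted p 0.00864).

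**Figure D2:**
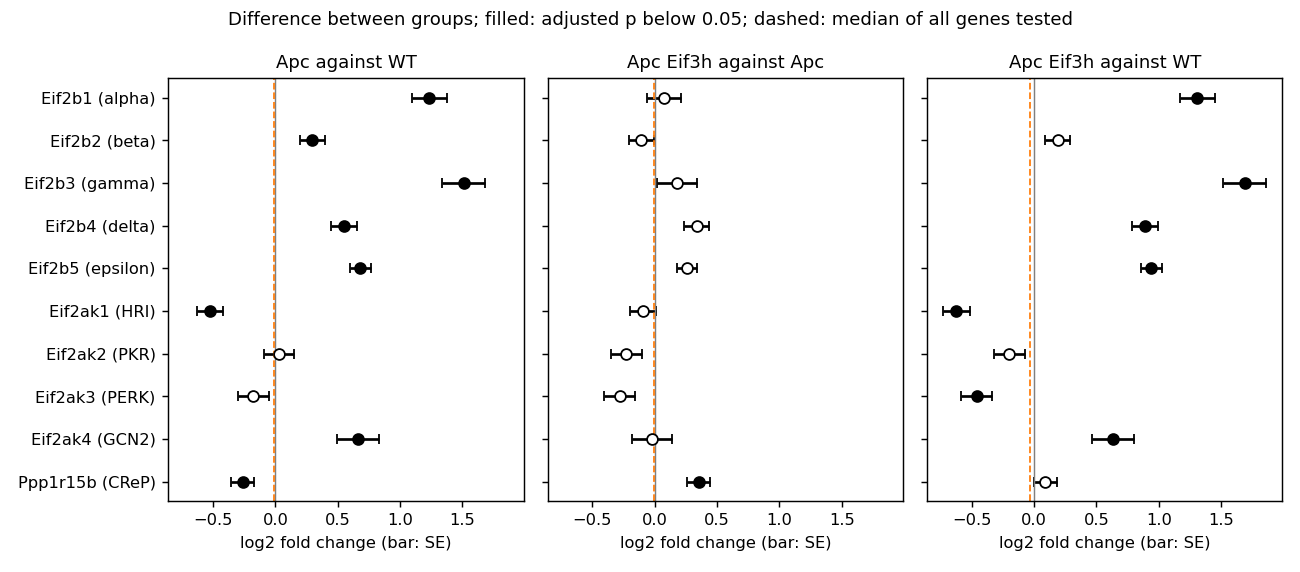
Log2 difference of each member in the 3 comparisons (x axis), with bars of 1 SE and filled points where the adjusted p was below 0.05. The dashed line is the median of all genes tested. The eIF2B subunits lie right of 0 in both comparisons with WT, and in Apc Eif3h against Apc the filled point is Ppp1r15b at 0.35.

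Cell types other than those of the villus and crypt are part of these samples, and fewer cells of a type and less RNA per cell cannot be told apart in bulk RNA. Against WT, 12 of 15 enterocyte markers fell in Apc and all 13 crypt stem and progenitor markers rose. The sum of the crypt markers was 781 to 1316 CPM in WT libraries, 3230 to 3702 CPM in Apc libraries and 2370 to 2969 CPM in those of Apc Eif3h. All 12 T cell markers fell (173 to 548 CPM summed in WT, 92.3 to 148 in Apc), as did 7 of 10 macrophage and neutrophil markers and 9 of 9 enteroendocrine markers. Goblet markers fell in 5 of 8, tuft markers in 6 of 6, endothelial in 5 of 8, fibroblast in 4 of 10, smooth muscle in 4 of 8, neuron and glia in 5 of 9, and B and plasma cell markers in 2 of 8, where 24.1% of all genes tested fell, a share that the last is near. Paneth markers rose in 2 of 8, near the 27.7% of all genes tested that rose. None of 3 tested pancreatic acinar markers was called. The part of these shifts in the members' differences from WT was not tested.

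Apc Eif3h against Apc asked what loss of Eif3h adds on the Apc background. Of the members, 1 was called, Ppp1r15b, which rose 1.28-fold, where 7.05% of all genes tested were called (4.27% higher and 2.78% lower). The median log2 difference of the members was 0.03, against -0.0019 over all genes tested. The eIF2B subunits and the kinases were not called, with log2 differences from -0.28 to 0.34. Differences of this size can be missed with 4 libraries a group, so a gene not called is not shown to be unchanged. The groups did not overlap for Eif2b4, Eif2ak3 and Ppp1r15b, 3 of 10 members against 15.2% of all genes tested.

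Ppp1r15b was at 279, 239, 245 and 256 CPM in Apc Eif3h, each above the 193 to 208 CPM of Apc. The log2 difference was 0.35 (SE 0.0908, adjusted p 0.0366). The Apc libraries are shared with the first comparison, in which Ppp1r15b differed by -0.26. The call was lost in 13 of 21 alternative settings with log2 differences from 0.31 to 0.38. Fits without WT replicate 4, Apc replicate 1, 2, 3 or 4, or Apc Eif3h replicate 1, 2 or 4 gave an adjusted p of 0.0502, 0.0852, 0.0881, 0.0972, 0.0640, 0.0951, 0.0553 and 0.0811. The Apc Eif3h libraries also overlapped those of WT, from which the log2 difference was 0.09 (SE 0.0907, adjusted p 0.405).

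Among the subunits, Eif2b4 was at 74.3, 67.6, 66.7 and 65.2 CPM in Apc Eif3h, above all Apc libraries. Its log2 difference of 0.34 (SE 0.100) had an adjusted p of 0.0616, and 5 of 21 alternative settings passed the threshold, among them DESeq2 (0.0317) and the fit without Apc replicate 1 (0.0375). Eif2b5 was at 102, 97.5, 87.3 and 100.4 CPM, with only replicate 3 below the highest Apc library. Its log2 difference was 0.26 (SE 0.0833, adjusted p 0.0820), and without Apc Eif3h replicate 3 it was 0.33 (adjusted p 0.0317). The Snx17 neighbour of Eif2b4 had a log2 difference of 0.07 (adjusted p 0.669).

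The remaining subunits overlapped between Apc and Apc Eif3h. Eif2b1 was at 89.2, 69.0, 59.1 and 71.2 CPM (0.08, SE 0.137, adjusted p 0.784). Eif2b2 was at 38.2, 33.0, 35.6 and 34.6 CPM (-0.11, SE 0.101, adjusted p 0.557). Eif2b3 was at 21.7, 18.5, 15.6 and 21.1 CPM (0.18, SE 0.160, adjusted p 0.540).

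Of the kinases, Eif2ak3 was at 33.8, 28.6, 35.1 and 30.8 CPM in Apc Eif3h, all below the lowest Apc library at 35.4, replicate 3 only just. The log2 difference was -0.28 (SE 0.124, adjusted p 0.194). Eif2ak1 was at 71.9, 70.6, 98.8 and 75.9 CPM, where replicate 3 was above every Apc library and the other 3 below them (-0.10, adjusted p 0.629). This replicate also had the highest Eif3h and the highest summed enterocyte markers of its group, and the part of either in the Eif2ak1 value was not tested. Eif2ak2 was at 59.3, 42.6, 44.4 and 50.4 CPM (-0.23, SE 0.122, adjusted p 0.283), and the groups overlapped. Eif2ak4 was at 17.3, 15.4, 12.3 and 16.7 CPM (-0.02, SE 0.162, adjusted p 0.947), with replicate 3 below all Apc libraries.

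In the 16 marker lists, Smoc2, Lgr5 and Spink4 were called in this comparison, all lower. Smoc2 and Lgr5 were 2 of 13 crypt stem and progenitor markers, and Spink4 was 1 of 8 goblet markers. None of 26 interferon-stimulated genes was called. Of all genes tested, 7.05% were called here, 2.78% lower and 4.27% higher. List medians were nonetheless away from 0 for B and plasma cells (1.85), Paneth cells (-0.94), fibroblasts (-0.49) and T cells (0.40). Paneth markers summed to 7261, 1904, 3087 and 1353 CPM in Apc Eif3h and 4535 to 9633 CPM in Apc, and B and plasma cell markers to 2219 to 4597 CPM and 2167 to 5848 CPM. The part of these differences in the members' values was not tested. Apc Eif3h replicate 2, the library that stood apart, was the lowest of its group for Eif2b2, Eif2ak1, Eif2ak2, Eif2ak3 and Ppp1r15b. Without it 0 members were called in this comparison.

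Apc Eif3h against WT shares the Apc Eif3h libraries with the comparison just given and the WT libraries with the first. In it 5 members rose and 2 fell, where 57.8% of all genes tested were called (29.8% higher and 28.1% lower). Eif2b3 differed by 1.69 (SE 0.173, adjusted p 1.01e-05), or 3.23-fold, and Eif2b1 by 1.31 (SE 0.141, adjusted p 1.33e-05). Eif2b5 differed by 0.94 (adjusted p 5.37e-06) and Eif2b4 by 0.89 (adjusted p 1.99e-05). Eif2b2 alone of the subunits was not called (0.19, SE 0.102, adjusted p 0.130), and its libraries overlapped those of WT. With scaling by library totals only it was called (0.39, adjusted p 0.0124).

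The kinase mRNAs moved both ways in this comparison. Eif2ak1 had a log2 difference of -0.62 (SE 0.106, adjusted p 0.000347). Eif2ak3 fell by 0.46 (SE 0.125, adjusted p 0.00711), a call lost with scaling by library totals only (-0.26, adjusted p 0.0524). Eif2ak4 rose by 0.64 (SE 0.168, adjusted p 0.00609), although Apc Eif3h replicate 3 at 12.3 CPM lay just under WT replicate 1 at 12.4. Eif2ak2 was not called (-0.20, SE 0.122, adjusted p 0.180), and passed without Apc Eif3h replicate 1 (-0.30, adjusted p 0.0487). For 6 of 10 members the groups did not overlap, against 47.7% of all genes tested.

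Levels of different genes were compared per length, as counts per kilobase of merged exons scaled to the same sum in each library. On this scale Ppp1r15b led in WT at 98.4 ± 8.57 (SD, n = 4), above 91.5% of all genes tested. Eif2ak1 (49.6 ± 2.23) and Eif2b5 (45.0 ± 4.01) followed, and their libraries overlapped. Eif2b2 (38.1 ± 5.82) overlapped Eif2b4 (32.8 ± 2.84), and Eif2b1 (26.0 ± 1.89) overlapped Eif2ak2 (25.5 ± 4.09). Eif2ak3 (16.8 ± 2.62) came next, and Eif2ak4 (3.10 ± 0.923) and Eif2b3 (2.11 ± 0.420) were lowest and overlapped.

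In Apc the order per merged exon length differed from that in WT. The top places went to Ppp1r15b (100.5 ± 6.69), Eif2b5 (88.0 ± 11.3), Eif2b1 (74.9 ± 14.7), Eif2b4 (58.8 ± 8.62) and Eif2b2 (57.1 ± 6.13), each overlapping the next. Eif2ak1 (42.1 ± 0.876) was then below all eIF2B subunits but Eif2b3 (7.39 ± 1.52). On this scale Apc Eif3h had the same order as Apc, with Ppp1r15b at 124.9 ± 12.1, Eif2b5 at 102.5 ± 11.8 and Eif2ak4 lowest at 5.70 ± 1.06.

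The order depended on the length used. For Eif2b3, merged exons span 6520 bases and the coding sequence 1356. Per coding length Eif2b3 was at 4.18 ± 0.885 in WT, above Eif2ak4 at 1.93 ± 0.589. Per coding length in Apc, Eif2ak1 (51.6 ± 1.09) lay below Eif2b1 (84.7 ± 15.7) and above Eif2b5 (42.6 ± 4.96), Eif2b2 (41.0 ± 3.93) and Eif2b4 (36.1 ± 4.88). In Apc Eif3h, Eif2b5 (49.6 ± 5.74) was above Eif2ak1 (46.7 ± 5.4), which overlapped it, so the orders in Apc and Apc Eif3h were not the same on that scale.

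The make-up of the subunit and kinase mRNAs is given next as a description. Summed per length, the eIF2B subunits reached 144 ± 11.1 in the WT group, 286 ± 41.5 for Apc and 311 ± 35.7 for Apc Eif3h, while the kinases were at 95.0 ± 2.78, 97.9 ± 4.37 and 84.8 ± 5.72. Per coding length the subunits summed to 105 ± 8.59, 219 ± 31.3 and 234 ± 31.4 and the kinases to 111 ± 4.21, 110.5 ± 4.45 and 95.7 ± 6.56, so that which sum was larger in WT depended on the length used. Eif2b1 made up 18.1% ± 1.84 of the subunit sum in WT, 26.0% ± 1.36 of it in Apc and 24.5% ± 2.17 of it in Apc Eif3h, and no WT library reached the Apc range. Eif2b2 made up 26.4% ± 2.6, 20.1% ± 1.13 and 16.6% ± 1.12, and Eif2b3 1.46% ± 0.242, 2.58% ± 0.305 and 2.6% ± 0.224. Eif2b4 held 22.8%, 20.5% and 23.3% and Eif2b5 31.3%, 30.8% and 33.0%.

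Among the kinases, Eif2ak1 held 52.2% ± 1.88 of the sum in WT, 43.0% ± 1.53 of it in Apc and 45.0% ± 5.20 of it in Apc Eif3h. Eif2ak4 held 3.27% ± 0.988, 6.06% ± 0.227 and 6.74% ± 1.23. Eif2ak2 held 26.8%, 32.4% and 31.1%, and Eif2ak3 17.7%, 18.6% and 17.2%. Per coding length the shares themselves differed but moved the same way: Eif2b1 held 28.7% in WT and 38.5% in Apc, Eif2b2 26.5% and 18.9%, Eif2ak1 56.0% and 46.7%, and Eif2ak4 1.73% and 3.25%. These shares are descriptions with no test.

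**Figure D3:**
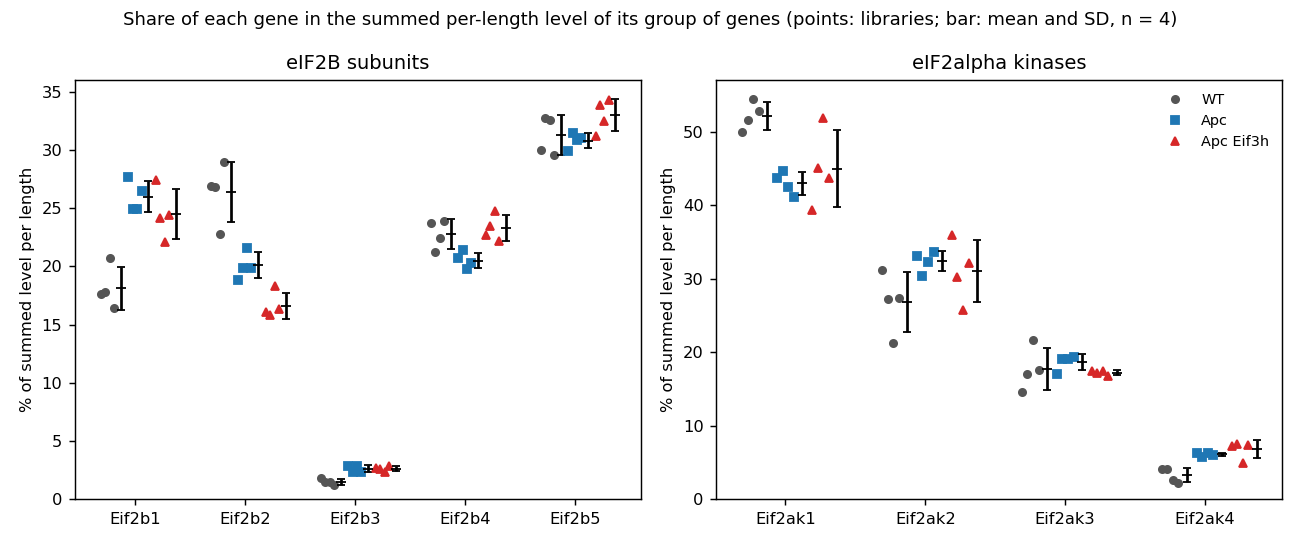
Share of each gene in the summed per-length level of the 5 eIF2B subunits (left) and of the 4 kinases (right), in percent (y axis), with 1 point per library and bars of the mean and SD (n = 4). The share of Eif2b1 is higher and that of Eif2b2 lower in Apc and Apc Eif3h than in WT, and Eif2ak1 is at 50.0% or more in every WT library.

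Ratios of counts within a library do not depend on scaling. They were compared by a two-sided exact permutation test of 4 against 4 libraries, adjusted over 9 tests, in which the smallest possible p is 0.0286 and the adjusted p of such a result was 0.0644. No ratio was called at an adjusted p below 0.05 in this family. The ratio of Eif2b5 to Eif2s1, the alpha subunit of its substrate eIF2, was 1.07, 1.09, 1.31 and 1.24 in WT and 0.790, 0.904, 0.785 and 0.808 in Apc. No Apc library reached a WT library, and the log2 difference was -0.52 (exact p 0.0286).

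In Apc Eif3h the same ratio was 0.917, 1.09, 1.03 and 0.986, above every Apc library by a log2 difference of 0.29 (exact p 0.0286, adjusted 0.0644). It overlapped WT (-0.22, exact p 0.0857, adjusted 0.154). Eif2s1 itself rose by 1.19 in Apc against WT (SE 0.124, adjusted p 2.19e-05) and differed by -0.03 (SE 0.121, adjusted p 0.906) between Apc Eif3h and Apc.

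The ratio of catalytic Eif2b5 to regulatory Eif2b1 was 1.71, 1.84, 1.58 and 1.82 in the WT libraries, 1.09, 1.27, 1.24 and 1.17 in the Apc libraries, and 1.15, 1.41, 1.48 and 1.41 in those of Apc Eif3h. WT lay above both other groups, by log2 differences of -0.54 for Apc and -0.36 for Apc Eif3h (exact p 0.0286 and adjusted 0.0644 for each). Apc Eif3h and Apc overlapped (0.19, exact p 0.114, adjusted 0.171).

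The third ratio set Ppp1r15a, the stress-inducible phosphatase subunit, over Ppp1r15b. It was between 0.0282 and 0.0532 in all 12 libraries, and the groups overlapped in all 3 comparisons, with log2 differences of 0.17 (exact p 0.400), -0.03 (exact p 0.943) and 0.14 (exact p 0.543). Ppp1r15a was at 6.76 to 11.8 CPM in WT libraries, 7.996 to 9.71 CPM in Apc libraries and 9.29 to 12.7 CPM in those of Apc Eif3h, and was not called in any comparison.

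**Figure D4:**
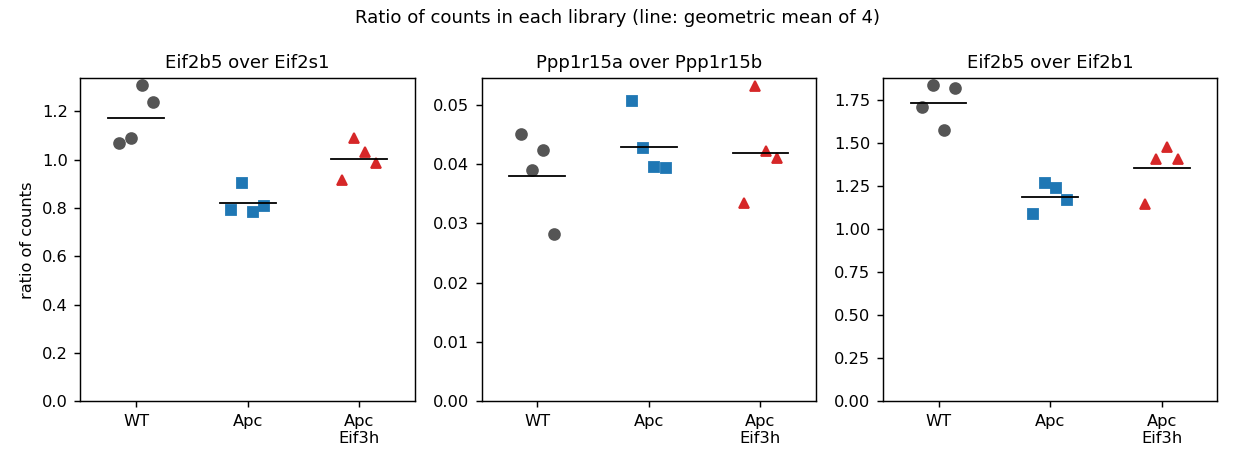
Ratio of counts of Eif2b5 to Eif2s1, Ppp1r15a to Ppp1r15b and Eif2b5 to Eif2b1 in each library (linear y axes from 0), with a line at the geometric mean of 4. The first ratio is lowest in Apc, at 0.785 to 0.904, and the last is highest in WT, at 1.58 to 1.84.

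Genes that act with the members were described by counts and medians. Of 11 genes of eIF2 and its start-site partners, 9 rose and none fell in Apc against WT, where 27.7% of all genes tested rose. The list median was 0.52, and the rises were led by Eif2s1, Eif1ax (0.76) and Bzw2 (1.08). In Apc Eif3h against Apc, 2 rose, where 4.27% of all genes tested did. They were Eif1 (0.98, SE 0.133, adjusted p 0.00266) and Eif5 (0.77, SE 0.109, adjusted p 0.00304), which enforce start-codon choice and GTP hydrolysis on eIF2. Without Apc Eif3h replicate 3 the number rising was 5. All 11 rose in Apc Eif3h against WT (median 0.97), where 29.8% of all genes tested rose.

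Among 7 phosphatase genes, 2 rose and 2 fell in Apc against WT, near the 27.7% and 24.1% of all genes tested. The catalytic subunit Ppp1ca (0.51) and the actin Actg1 (0.67) rose, and Ppp1r15b and Actb (-0.50, adjusted p 0.0359) fell. Neither fall was called with scaling by library totals only, or without WT replicate 3 or 4 or Apc replicate 1 or 3. Without Apc replicate 2 or 4, 1 fall was called. In Apc Eif3h against Apc, Ppp1r15b was the 1 called, where 7.05% of all genes tested were.

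Of 14 regulators of the kinases, 7 rose and 1 fell in Apc against WT, where 27.7% of all genes tested rose and 24.1% fell. The list median was 0.18, against -0.0099 over all genes tested. Calls in both directions together were near the 51.8% of all genes called there. In Apc Eif3h against WT, 7 rose and 3 fell, where 29.8% of all genes tested rose and 28.1% fell. None was called in Apc Eif3h against Apc, where 7.05% of all genes tested were. In Apc against WT, Gcn1l1, which GCN2 needs for its activation, rose by 0.77 (SE 0.116, adjusted p 0.000199). Oma1, the mitochondrial protease upstream of HRI signalling, rose by 0.53 (adjusted p 0.00371). The chaperones Hsp90ab1 (1.15) and Hspa8 (0.74) and the ribosome recycling factor Abce1 (1.31) also rose. Dnajc3, an inhibitor of PKR and PERK, fell by 0.39 (adjusted p 0.00385), a call lost with scaling by library totals only.

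Of all genes tested, 27.7% rose and 24.1% fell in Apc against WT. Of 32 tested genes of ATF4 and its targets, 17 rose and 6 fell there (median 0.44). The rises were led by Gars (1.51), Slc7a5 (2.49), Phgdh (2.94), Ddit4 (1.59) and Shmt2 (1.90), which serve tRNA charging, amino acid uptake, serine synthesis, mTOR restraint and one-carbon metabolism. Atf4 itself was not called (-0.05, adjusted p 0.689), and with scaling by library totals only 3 fell. In Apc Eif3h against Apc, 6 rose and 2 fell (median 0.38), where 4.27% of all genes tested rose and 2.78% fell. Atf5 (1.37), Atf4 (0.83, SE 0.101, adjusted p 0.00172), Sars (0.39), Ddit3 (0.70), Aars (0.46) and Mthfd2 (0.76) rose, and Vldlr (-0.97) and Ddit4 (-0.77) fell. Without Apc Eif3h replicate 3 the rises numbered 13, with DESeq2 they numbered 10, and the falls numbered 1 without Apc replicate 4 or Apc Eif3h replicate 1, 2 or 4.

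Of all genes tested, 24.1% fell and 27.7% rose in Apc against WT (median -0.0099). Of 23 genes of the endoplasmic reticulum stress response beside PERK, 10 fell and 2 rose there (median -0.21). Their calls in both directions together were near the 51.8% of all genes called. Creb3l2 (-1.14, adjusted p 7.93e-05), Edem1 (-0.69), Xbp1 (-0.61) and Sel1l (-0.55) fell. Atf6b (0.32) and Pdia6 (0.33, adjusted p 0.0465) rose. The number rising was 1 in most fits that left out a library and 4 without WT replicate 1. None was called in Apc Eif3h against Apc, where Eif2ak3 was not called either. With scaling by library totals only, 6 fell in Apc against WT.

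**Figure D5:**
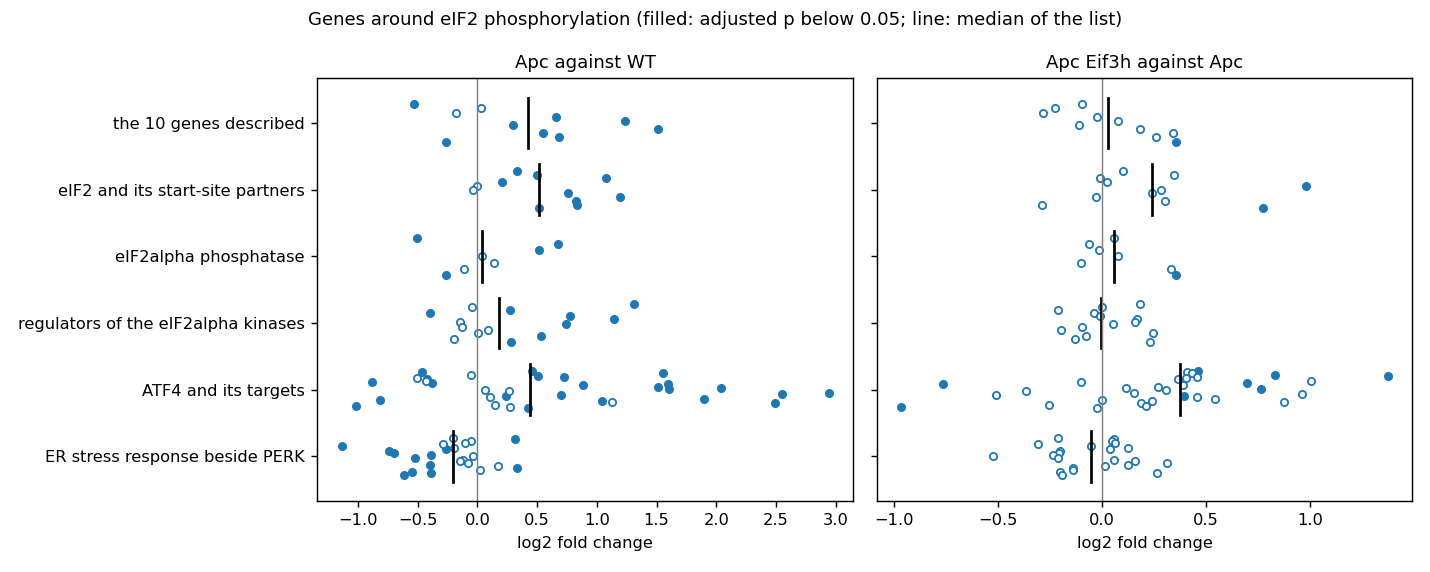
Log2 difference (x axis) of the 10 members and of every tested gene of 5 lists around eIF2 phosphorylation, in Apc against WT (left) and Apc Eif3h against Apc (right). Each point is a gene, filled where the adjusted p was below 0.05, and each line is the median of its list. In the right panel the filled points lie among the start-site partners, the ATF4 genes and Ppp1r15b.

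For each member the 3 genes of closest pattern were found among 12796 genes, by the root mean square difference in log2 CPM centred per gene over the 12 libraries. Eif2b1 was closest to Ddx39 (0.0542), Nup93 (0.0772) and Snrpd1 (0.0817). Eif2b3 was closest to Ipo5 (0.0988), Nop16 (0.105) and Pbk (0.105). Eif2b5 lay closest to Vac14 (0.0423), Strap (0.0512) and Eif1ax (0.0515). Eif1ax encodes an initiation factor of the start-site list.

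Eif2b4 was nearest to Chchd1 (0.0752), Hars (0.0857) and Cct4 (0.0871), and Eif2b2 to Plrg1 (0.0819), Psmb7 (0.0828) and Zbtb45 (0.0833). For Eif2ak1 they were Rnf5 (0.0530), Atg13 (0.0600) and Ak3 (0.0604), and for Ppp1r15b Socs4 (0.0714), Nectin2 (0.0759) and Kctd6 (0.0792). Within the set, the closest pair was Eif2b4 and Eif2b5, at 0.11. No other pairing of a member with its nearest member came under 0.188.

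The other kinases had looser neighbours, apart from Eif2ak3. For Eif2ak3 they were Serinc5 (0.0695), Efhd2 (0.0793) and Avl9 (0.0800), for Eif2ak4 Irak1 (0.0929), Yae1d1 (0.0960) and Zfp397 (0.0969), and for Eif2ak2 Smyd3 (0.101), Nampt (0.106) and Zfp729a (0.111). These distances are descriptions over libraries that share scaling and depth.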

How the data were processed

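RNA from mouse small intestine came from RNeasy Micro columns, and TruSeq RNA libraries were read on a NextSeq instrument, per the labels' protocols. The authors deposited a table of raw counts per gene for 12 libraries, which was used as deposited. Tools named in the submitters' processing notes are HISAT2 2.1.0, featureCounts 1.6.4, Trim Galore 0.6.4 and FastQC 0.11.8, with the build GRCm38. For annotation release, strand setting and multimapping reads the entry is "not given in the sources used here", so reads of overlapping genes on opposite strands could not be separated. Symbols, coordinates and lengths came from GENCODE M21. Of 55421 identifiers 181 did not match, with 0.00226% of counts.

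Tests used edgeR 4.0.16 (R 4.3.3) after filterByExpr with the groups (17394 genes), TMM factors, and a quasi-likelihood fit of all 12 libraries with 1 mean per group. Adjusted p-values are Benjamini-Hochberg over all genes tested, with calls below 0.05. The SE is the absolute log2 difference divided by the square root of F. The procedure was tested on simulated data. Ratios used counts plus 0.5. For patterns, the prior count in log2 CPM was 2. The 10 members and all lists were chosen with earlier results of these data known. Named genes were all members, up to 5 called genes of smallest p per pathway list, up to 3 per marker list, counts of 5 or fewer in full, and the 3 nearest patterns. Listed symbols without a match were Ahsp and the alternative spellings Gcn1 and 0610009O20Rik, whose genes were matched as Gcn1l1 and Dele1. Alternatives were 21 settings: other scaling and filters, DESeq2 1.42.0, 2 groups only, sex, a replicate block, and leaving out each library. No pair of replicates within a group differed by less than sampling noise.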

Additional observations from a re-analysis of the deposited data

How the results depend on the processing

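Over 30 member results (10 members, 3 comparisons) and 21 alternative settings, 586 of 630 values kept direction and side of the threshold, 29 lost the call, 9 gained it and 6 changed sign, and 17 of the 30 results kept both throughout. The cause of each change was not tested. In Apc against WT, the members called lower were 2, but 1 with library totals only, with no filter on low counts, with only the 2 groups compared and with males only, and 1 to 2 when a library was left out. In Apc Eif3h against WT, the 2 became 1 with library totals only. In Apc Eif3h against Apc, the 1226 genes called became 817 with no filter, 659 with males only, and 406 (without Apc replicate 3) to 1767 (without Apc Eif3h replicate 3) when a library was left out. The 1 member called higher there became 0 with DESeq2 size factors in edgeR or with no filter, 2 with DESeq2, and 0 to 2 when a library was left out. Values that changed sign, none of them called, were as follows. With library totals only, Eif2ak3 (0.0612) and Ppp1r15a (0.12) did so in Apc against WT and Eif2ak2 (0.000838) in Apc Eif3h against WT. When a library was left out, Eif2ak2 ranged from -0.0595 to 0.10 and Ppp1r15a from -0.23 to 0.0275 in Apc against WT, and in Apc Eif3h against Apc Eif2b1 ranged from -0.0408 to 0.18, Eif2ak4 from -0.0811 to 0.0918 and Eif2s1 from -0.11 to 0.0501, which was 0.0462 with males only. The ratios of Eif2b5 to Eif2s1 and to Eif2b1 kept their direction throughout. The ratio of Ppp1r15a to Ppp1r15b, not called in any comparison, ranged over its alternatives from -0.053 to 0.25 in Apc against WT, from -0.15 to 0.0762 in Apc Eif3h against Apc and from -0.00636 to 0.25 in Apc Eif3h against WT. Leaving out a library, or using males only, leaves too few for a permutation p under 0.05, so those ratios carry no test.

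Replicate numbers are shared between groups, but the 12 same-numbered pairs of libraries had correlated deviations from -0.14 to 0.24, and 3 of 12 libraries matched their own number best, so the numbers are not taken to pair samples. With a replicate block, 8759 genes were called in Apc against WT, 993 in Apc Eif3h against Apc and 9853 in Apc Eif3h against WT. In Apc Eif3h against Apc, the replicate block gave Ppp1r15b 0.35 with an adjusted p of 0.0565 and Eif2b4 0.34 with 0.0356, so that the members called higher stayed at 1. The block changed no other member's call. Eif2b3, at 59 to 97 counts per WT library, and Eif2ak4, at 88 to 164, have the thinnest counts.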
